A study of Mus musculus with 8 samples.

Results

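The genes described here are 38 genes of blood vessel lining and blood vessel growth, taken from a list of names and read in counts of heart RNA, and they make up 38 of the 55471 genes in the count tables. The list groups genes by function and uses no measured value in its rule, but it was drawn up with earlier results of these data known. It holds 10 junction and surface proteins of endothelial cells, 8 ligands and receptors of the vascular endothelial growth factor (VEGF) family with the neuropilins, 4 angiopoietins and Tie receptors, 3 genes of Notch signalling, 5 genes of apelin, endothelin and nitric oxide signalling, 2 proteins of capillary endothelium and 6 transcription factors. All 38 had enough reads to be tested, and the lowest count of any of them in any library was 80.

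Heart pieces of 4 wild-type (WT) and 4 TAZG197V mice were sequenced for RNA. TAZG197V mice have a knock-in of a point mutation found in Barth syndrome, which affects tafazzin, an enzyme of mitochondria that exchanges the acyl chains of cardiolipin. The line was made by Cas9 editing of C57BL/6N zygotes and then outcrossed to C57BL6/J over 2 generations. The gene is X-linked, and the mutants used were hemizygous males, with the mutation in every cell type of the heart. The mice were 14 weeks old, an age that the labels do not hold. The labels give no treatment, name homozygous offspring and do not give the sex of any mouse. Nothing in the labels says that the 4 libraries of a genotype came from separate animals beyond their titles, so the p-values measure the spread between these libraries.

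Endothelial cells line every vessel of the heart and are joined by VE-cadherin (Cdh5), claudin 5 and related proteins. VEGF-A, released largely by cardiomyocytes, drives vessel growth through the receptor VEGFR2 (Kdr), while angiopoietin 1, released by cells around the vessel, keeps the endothelium quiet through the receptor Tie2 (Tek). Apelin, made by endothelial cells, acts on its own receptor (Aplnr) and is known to be induced at low oxygen, and Notch signalling sets which endothelial cells sprout and which become arterial.

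Taz itself, on chromosome X at 74281912 to 74290151 (GRCm38, forward strand), had a mean of 60.9 ± 2.36 CPM over the WT hearts and of 47.3 ± 2.60 over the mutant hearts (SD, n = 4), without overlap between the genotypes. CPM throughout are counts per 1e+06 counts of the library after TMM scaling, a correction for differences in library composition. Library totals ranged from 23055689 to 36301031 counts, and the precision of each value is given by the spread between libraries. In each genotype, libraries 1 and 2 were sequenced on lane 7 and libraries 3 and 4 on lane 8. Library WT 4 stood apart, with 5.35% of its counts in 6 red cell genes against at most 0.102% in any other library, and members whose call changed when it was left out are given with and without it. The summed level of 6 cardiomyocyte marker genes was far above that of any endothelial list, at 32322 to 46445 CPM.

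Of the 38 genes, 12 were lower in TAZG197V hearts and 0 were higher by the test used, edgeR's quasi-likelihood F-test with 2 surrogate variables and Benjamini-Hochberg adjustment over 15084 genes. Surrogate variables are patterns of variation across libraries, estimated from the data, that the genotype does not explain. A gene was called when its adjusted p was under 0.05, its log2 fold change was above 0.20 or below -0.20, and its mean scaled count was at least 50. Among all genes tested, 33.5% were called, 15.1% lower and 18.5% higher. The share of the 38 called in either direction (12 of 38) was thus near that of all genes, while all of the calls among them were decreases. At an unadjusted p under 0.05 by the same edgeR test there were 17 members against 48.2% of all genes, and DESeq2 called 15 against 31.3%. The count of 12 rested in part on single libraries, as it was 7 without TAZG197V 2, where 24.1% of all genes were called, and 17 without TAZG197V 3, where 31.1% were.

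The 12 called genes were apelin (Apln), angiopoietin 1 (Angpt1), Vegfb, Kdr, Nrp1, Nrp2, Notch1, Aplnr, Nos3, Cdh5, Eng and Fli1. By the fitted fold change Apln fell to 0.263 and Angpt1 to 0.292 of the WT level, and 9 of the 12 had a fold change under 1.5. The fitted log2 fold changes of all 38 (TAZG197V against WT) ran from -1.93 to 0.28 with a median of -0.29, and 30 of them were below 0. Over all tested genes the median was -0.01 and 51.2% lay below 0. For all 12 called genes the sign was the same within lane 7 and within lane 8, but the sizes were unequal for Kdr (-0.07 and -0.70, difference in mean log2 CPM) and Aplnr (-0.15 and -0.51).

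**Figure D1:**
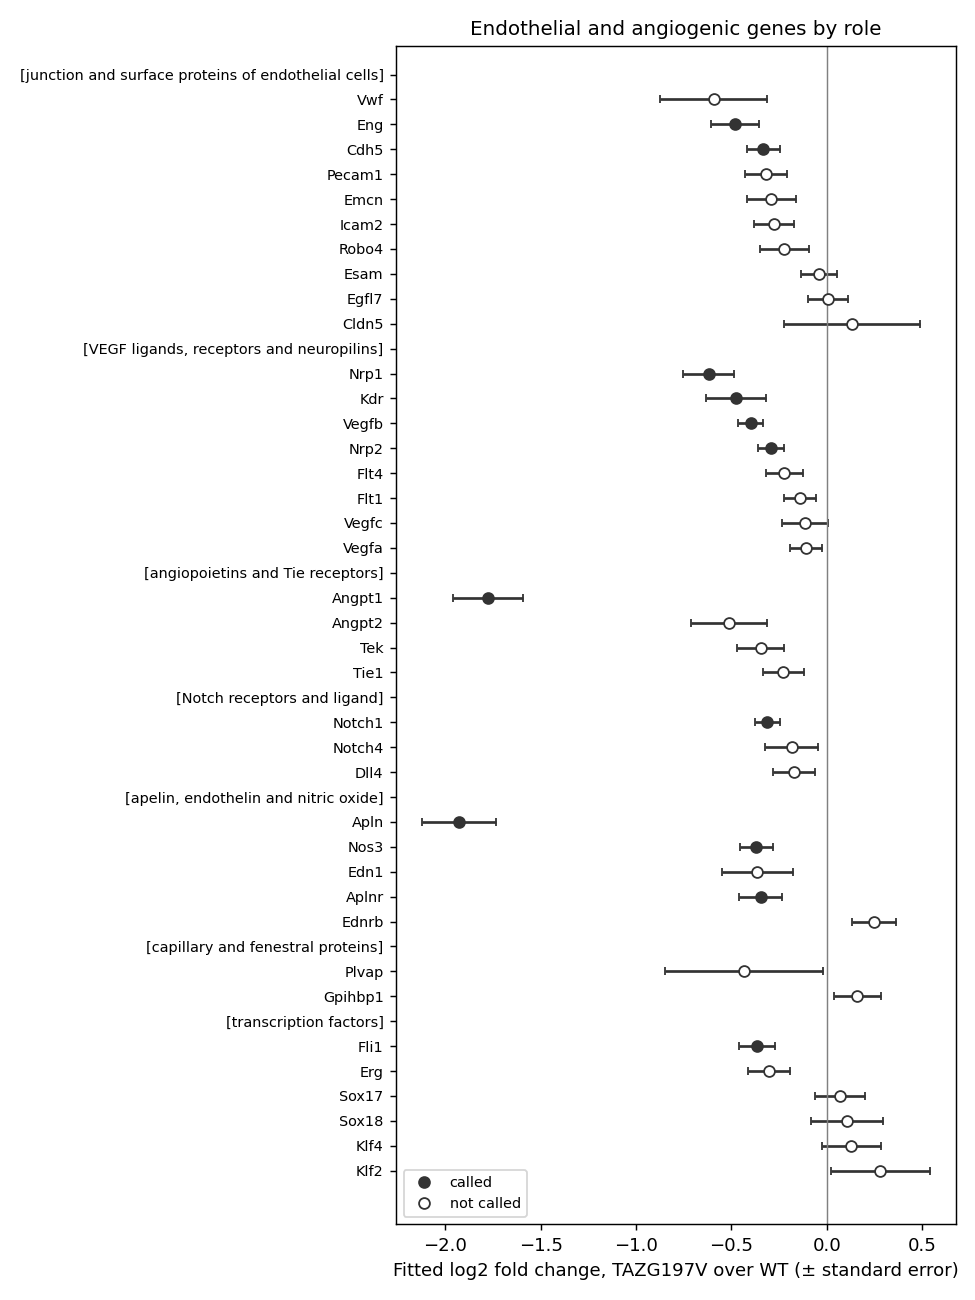
Fitted log2 fold change (TAZG197V against WT, x axis) of the 38 genes, arranged by role, with bars of 1 standard error and filled points for the called genes. The called genes all lie left of 0, with Apln at -1.93 and Angpt1 at -1.78 far from the rest, and the points right of 0, up to Klf2 at 0.28, were not called.

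The genotypes did not overlap in 6 of the 38 genes, all with every TAZG197V library below every WT library. These were Apln, Angpt1, Vegfb, Notch1, Fli1 and Pecam1, the last of which was not called. Among all genes 33.2% did not overlap and 13.9% did so in this direction. Overlap is less likely with fewer libraries. The count was 12 without WT 4, where 39.6% of all genes did not overlap, and 13 without TAZG197V 3, where 37.9% did not, each again lower in the mutant against 17.4% and 16.7% of all genes. In whole tissue, fewer endothelial cells and less RNA of these genes per cell cannot be told apart.

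Apelin showed the largest fitted change of the list, but Angpt1 was close and led without WT 1 (-1.87 against -1.86, log2). The promoter of Apln is shown here with those of Vegfb, Nrp1 and Notch1. These genes passed the test under each of 16 other ways of fitting the data, as did Angpt1, for which the sequence table held no promoter. The last 3 were chosen after their values were seen. Each line gives the 250 bases before the RefSeq start of the gene on GRCm38.p6, read 5′ to 3′ on the strand of the gene. Capitals mark the core GGAA bound by ETS factors such as Erg and Fli1 and the hypoxia response cores ACGTG and GCGTG, on either strand (TTCC, CACGT and CACGC in reverse). For Nrp1 and Notch1 the RefSeq start lies inside the gene as GENCODE bounds it, so that these windows lie within the gene positions given here and not before them. The windows are chrX:48034854-48035103 on the reverse strand for Apln, chr19:6987652-6987901 on the reverse strand for Vegfb, chr8:128358823-128359072 on the forward strand for Nrp1 and chr2:26503823-26504072 on the reverse strand for Notch1.
Apln: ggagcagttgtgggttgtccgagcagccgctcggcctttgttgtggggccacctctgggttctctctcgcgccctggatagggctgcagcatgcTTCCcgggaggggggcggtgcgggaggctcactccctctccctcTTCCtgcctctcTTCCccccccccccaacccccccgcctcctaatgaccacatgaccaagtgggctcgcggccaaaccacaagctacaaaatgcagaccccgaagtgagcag
Vegfb: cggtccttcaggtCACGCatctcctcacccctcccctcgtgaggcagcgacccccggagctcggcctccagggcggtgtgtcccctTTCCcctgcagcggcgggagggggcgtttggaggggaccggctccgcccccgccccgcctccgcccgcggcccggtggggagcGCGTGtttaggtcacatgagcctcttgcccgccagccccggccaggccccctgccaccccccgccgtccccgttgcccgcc
Nrp1: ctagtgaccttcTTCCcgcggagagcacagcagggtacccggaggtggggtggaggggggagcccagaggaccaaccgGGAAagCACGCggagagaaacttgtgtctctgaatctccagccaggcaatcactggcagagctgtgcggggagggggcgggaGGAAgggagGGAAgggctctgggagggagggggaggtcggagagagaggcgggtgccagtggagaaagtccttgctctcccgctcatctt
Notch1: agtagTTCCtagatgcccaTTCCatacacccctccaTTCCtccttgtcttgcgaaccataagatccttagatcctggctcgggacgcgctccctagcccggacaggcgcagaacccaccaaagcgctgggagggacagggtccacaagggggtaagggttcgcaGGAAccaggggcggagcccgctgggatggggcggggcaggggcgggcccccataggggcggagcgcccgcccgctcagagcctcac

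The Apln window held 3 ETS cores, the Vegfb window 1, and the Nrp1 and Notch1 windows 4 each. Hypoxia response cores were found at 2 places before Vegfb and 1 before Nrp1, with 0 in the windows of Apln and Notch1. The motifs searched on both strands were these cores, the KLF box CACCC, the E-box CANNTG, which can overlap ACGTG, and TGATGNA, the start of the C/EBP-ATF response element. Of the 38 genes, 24 had a promoter in the RefSeq table. An ETS core was present in 22 of these 24 and in 93.4% of all 32851 promoters, and a hypoxia core in 10 of 24 and in 38.6% of all. The KLF box was in 19 of 24 against 52.0% of all promoters, the E-box in 12 of 24 against 66.2%, and TGATGNA in 0 of 24 against 10.4%. These matches describe letters in a window and say nothing about binding.

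Apelin, endothelin and nitric oxide genes gave 3 decreases of 5. Apln (ENSMUSG00000037010, chromosome X, 48025146 to 48034853, reverse strand), the peptide that relaxes vessels and strengthens the heart beat, was at 21.2, 18.0, 19.7 and 13.5 CPM in WT libraries 1 to 4 and at 3.05, 6.18, 5.55 and 3.96 in TAZG197V libraries 1 to 4. The highest mutant library was thus below the lowest WT library by more than the whole mutant range. Means were 18.1 ± 3.34 and 4.69 ± 1.43 CPM (SD, n = 4), a log2 fold change of -1.93 ± 0.19 (SE, edgeR adjusted p = 0.000197). Over the 16 other fits it stayed between -2.05 and -1.78.

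Aplnr, the apelin receptor of endothelial cells, had a much smaller decrease than its ligand, with means of 46.3 ± 13.5 and 37.4 ± 11.9 CPM and a log2 fold change of -0.35 ± 0.12 (edgeR adjusted p = 0.043). It ranged from 32.8 to 64.9 CPM in WT and from 21.2 to 49.6 in TAZG197V, so the genotypes overlapped widely. It was called in 6 of the 16 other fits, and the log2 fold change was -0.20 without TAZG197V 4 (edgeR adjusted p = 0.394) and -0.22 without WT 3 (adjusted p = 0.132). The ratio of Apln to Aplnr counts fell from 0.403 ± 0.0821 to 0.133 ± 0.0465 (SD, n = 4) without overlap.

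Nos3, the endothelial nitric oxide synthase that relaxes the vessel wall, ranged from 20.2 to 29.2 CPM in WT and 18.4 to 20.5 in TAZG197V (log2 fold change -0.37 ± 0.09, edgeR adjusted p = 0.0108). Of its exon length, 32.3% also belongs to neighbouring genes, Atg9b among them, so that its count is less certain. Edn1, which encodes the vessel-narrowing peptide endothelin 1, had values of 4.64 ± 1.00 CPM in WT and 3.63 ± 0.573 in TAZG197V and did not pass the test (log2 fold change -0.36 ± 0.18, edgeR adjusted p = 0.155, and -0.18 without WT 3, adjusted p = 0.468). Ednrb, the endothelin B receptor of endothelial cells, was one of 8 members with a fitted change above 0 (0.25 ± 0.11, edgeR adjusted p = 0.122). Its values were 19.5, 26.96, 25.4 and 21.6 CPM in WT and 29.8, 32.1, 25.98 and 22.0 in TAZG197V, so that the lane 8 libraries overlapped. The Edn1 to Ednrb count ratio separated the genotypes, at 0.199 ± 0.0294 in WT and 0.134 ± 0.0241 in TAZG197V, although neither gene was called. How often ratios of other gene pairs separate the genotypes was not computed.

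**Figure D2:**
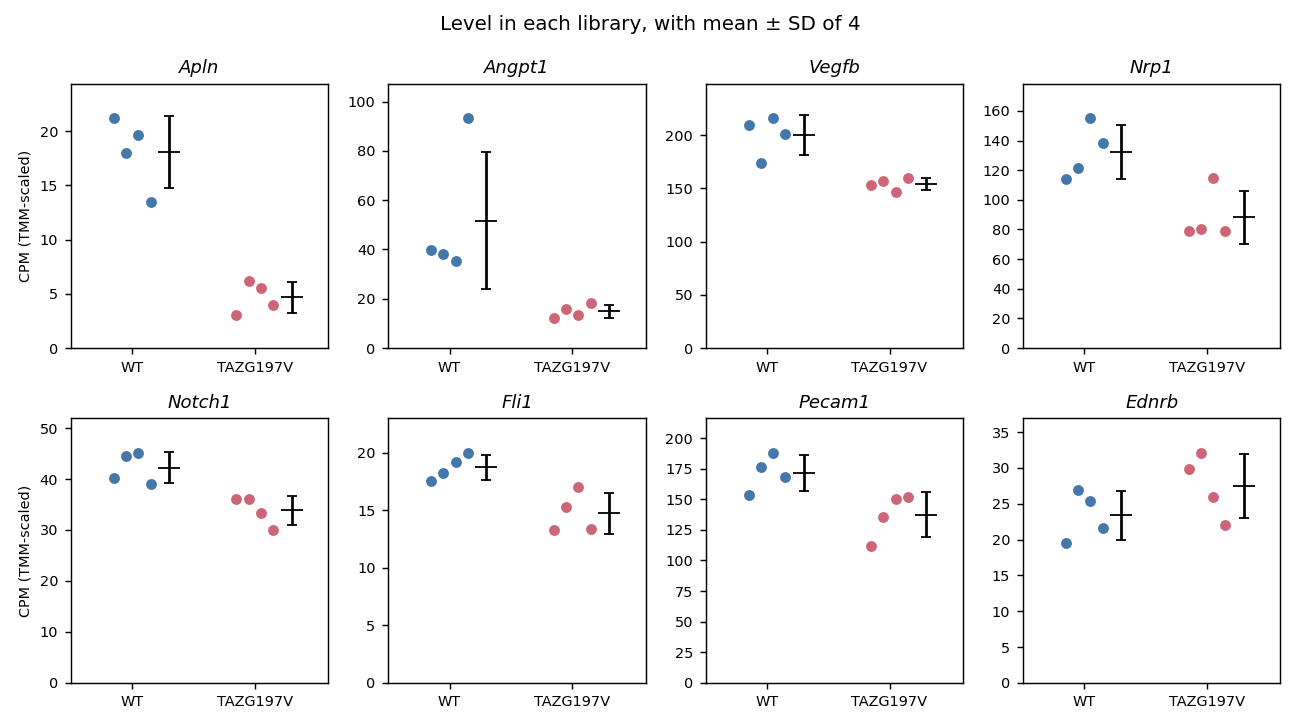
Level (CPM, linear y axis from 0, one scale per panel) of Apln, Angpt1, Vegfb, Nrp1, Notch1, Fli1, Pecam1 and Ednrb in each of the 8 libraries, with bars for the mean and SD of each genotype. Every TAZG197V point lies below every WT point for Apln, Angpt1, Vegfb, Notch1, Fli1 and Pecam1, and WT 4 stands alone at 93.3 CPM for Angpt1.

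Among the angiopoietins and Tie receptors, Angpt1 fell and the other 3 genes did not pass the test. Angpt1 (ENSMUSG00000022309, chromosome 15, 42424723 to 42676977, reverse strand) was at 39.8, 38.2, 35.2 and 93.3 CPM in WT libraries 1 to 4 and at 12.3, 15.7, 13.3 and 18.3 in TAZG197V. The 3 WT libraries other than WT 4 lay close together, and all of them were above the highest mutant library. The log2 fold change was -1.78 ± 0.18 (SE, edgeR adjusted p = 0.000212), and it lay between -1.90 and -1.38 over the other fits, each of which called the gene. Without WT 4 the log2 fold change was -1.38 (edgeR adjusted p = 3.16e-05). Of its exon length, 14.2% is shared with the predicted gene Gm17473.

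Angpt2, the antagonist of angiopoietin 1 released by activated endothelium, was one of the rarest members at 5.16 ± 0.965 CPM in WT and 3.46 ± 0.84 in TAZG197V (log2 fold change -0.51 ± 0.20, edgeR adjusted p = 0.0756). The receptor Tek gave -0.35 ± 0.12 (adjusted p = 0.056) and was called in 6 of the 16 other fits. Tie1, the partner receptor of Tek, gave -0.23 ± 0.11 (adjusted p = 0.124), or -0.30 without WT 4 (adjusted p = 0.0484) and -0.11 without WT 3 (adjusted p = 0.327). The count ratio of Angpt1 to Tek was 0.458 to 1.40 in WT and 0.189 to 0.355 in TAZG197V, and that of Angpt1 to Angpt2 was 5.97 to 20.5 in WT and 3.40 to 5.14 in TAZG197V, neither with overlap.

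Because angiopoietin 1 comes from cells around the vessel, markers of cell types other than endothelium are given beside it. Of 10 mural cell markers, those of pericytes and smooth muscle, 5 were called lower and 1 higher. The higher gene was Acta2, smooth muscle actin, which rose by 1.16 on the log2 scale, and the largest fall was that of Myh11, smooth muscle myosin, at -0.98. The summed level of the 10 markers was 1347 to 1490 CPM in WT and 1317 to 1427 in TAZG197V. Of 6 fibroblast markers 3 were called lower, with a summed level of 1010 to 1637 CPM in WT and 688 to 1009 in TAZG197V. Of 6 cardiomyocyte markers 4 were called lower, with a summed level of 41560 to 46445 CPM in WT and 32322 to 37182 in TAZG197V. The part of any of these cell types in the Angpt1 result was not tested.

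In the VEGF group 4 of 8 genes fell, namely Vegfb, Nrp1, Nrp2 and Kdr. Vegfb (ENSMUSG00000024962, chromosome 19, 6982473 to 6987651, reverse strand), a ligand of VEGFR1 that is abundant in heart muscle, was at 209.5, 174.1, 215.9 and 200.7 CPM in WT and at 153.2, 157.1, 146.8 and 159.9 in TAZG197V. The mutant libraries were tightly grouped below the lowest WT library, and the log2 fold change was -0.40 ± 0.07 (SE, edgeR adjusted p = 0.00211). Vegfa, the main growth signal for vessels, averaged 299.7 ± 52.5 CPM in WT and 279.4 ± 32.5 in TAZG197V (log2 fold change -0.11 ± 0.08, edgeR adjusted p = 0.339) and was called in 0 of the 16 other fits. Vegfc, the ligand of lymphatic vessels, was at 6.49 ± 0.865 and 5.97 ± 0.392 CPM (-0.11 ± 0.12, adjusted p = 0.486). The ratio of Vegfa to Vegfb counts, 1.23 to 1.71 in WT and 1.46 to 2.05 in TAZG197V, overlapped. That of Vegfb to Flt1, 1.27 to 1.66 in WT and 1.10 to 1.30 in TAZG197V, overlapped too.

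Of the receptors, the co-receptor neuropilin 1 changed most. Nrp1 (ENSMUSG00000025810, chromosome 8, 128358604 to 128503363, forward strand) was at 114.1, 121.4, 155.1 and 138.6 CPM in WT and at 78.7, 80.5, 114.7 and 78.7 in TAZG197V. A single mutant library, TAZG197V 3, reached the lowest WT library, and the other 3 were well below it. The log2 fold change was -0.62 ± 0.13 (SE, edgeR adjusted p = 0.00785) and was called in all 16 other fits. Nrp2, the neuropilin of veins and lymphatic vessels, fell less, at -0.29 ± 0.07 (edgeR adjusted p = 0.00971), from 46.6 to 63.8 CPM in WT to between 41.6 and 49.8 in TAZG197V with overlap.

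Kdr, the main signalling receptor for VEGF-A, was at 166.8, 168.1, 323.2 and 205.5 CPM in WT and at 153.2, 166.2, 202.3 and 123.7 in TAZG197V. WT 3 was far above the other 7 libraries, and without it the log2 fold change went from -0.48 ± 0.16 (SE, edgeR adjusted p = 0.0446) to -0.25 (adjusted p = 0.157). The difference lay mostly on lane 8, at -0.70 against -0.07 on lane 7. Without WT 4 it gave -0.39 (edgeR adjusted p = 0.181). It was called in 4 of the 16 other fits. The decoy receptor Flt1 gave -0.14 ± 0.09 (adjusted p = 0.225) and the lymphatic receptor Flt4 -0.22 ± 0.10 (adjusted p = 0.109), and both ranges overlapped between genotypes. Flt4 was called without WT 4 (-0.41, edgeR adjusted p = 0.00613) and without TAZG197V 4 (-0.34, adjusted p = 0.0186), and gave -0.12 without WT 1 (adjusted p = 0.381).

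Notch1 was the single called gene of 3 in Notch signalling. This receptor (ENSMUSG00000026923, chromosome 2, 26457903 to 26516663, reverse strand), which restrains sprouting when it meets its ligand on a neighbouring cell, was at 40.3, 44.5, 45.1 and 39.0 CPM in WT and at 36.1, 36.0, 33.2 and 30.04 in TAZG197V. The decrease was small but separated the genotypes (log2 fold change -0.31 ± 0.06, edgeR adjusted p = 0.00593), and it was called in all 16 other fits at -0.34 to -0.28. Its endothelial ligand Dll4 gave -0.17 ± 0.11 (adjusted p = 0.245) and the endothelial receptor Notch4 -0.18 ± 0.14 (adjusted p = 0.327). Notch4 was at -0.016 without WT 3 (edgeR adjusted p = 0.92) and was called without both number 4 libraries (-0.25, adjusted p = 0.0402).

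Among the junction and surface proteins, 2 of 10 fell. Cdh5, the adhesion protein of endothelial junctions, ranged from 170.5 to 225.3 CPM in WT and 136.4 to 174.1 in TAZG197V (log2 fold change -0.33 ± 0.09, edgeR adjusted p = 0.0179). Eng, a co-receptor for bone morphogenetic proteins on endothelium, measured 135.6, 154.5, 192.6 and 207.5 CPM in WT and 112.7, 115.4, 147.8 and 129.8 in TAZG197V (-0.48 ± 0.13, adjusted p = 0.0182). Eng was called in 10 and Cdh5 in 11 of the 16 other fits, and without WT 4 Eng gave -0.35 (edgeR adjusted p = 0.0802). Pecam1, the classical endothelial surface marker CD31, was lower in every TAZG197V library, at 111.9 to 151.8 CPM against 153.7 to 187.9 in WT, but its edgeR adjusted p of 0.0505 missed the threshold (-0.32 ± 0.11). It was called in 11 of the 16 other fits, among them that without WT 4 (-0.34, edgeR adjusted p = 0.0442).

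The other 7 genes of this group were not called. Emcn, Icam2 and Robo4, surface proteins of resting endothelium, gave log2 fold changes of -0.29, -0.28 and -0.22. Icam2 was called without WT 4 (-0.35, edgeR adjusted p = 0.0377). Robo4 depended on single libraries, since it gave -0.44 and was called without WT 4 (edgeR adjusted p = 0.000659) or without TAZG197V 4 (adjusted p = 0.00116), but -0.14 without WT 1 (adjusted p = 0.518). Vwf, the clotting protein stored in endothelium, gave -0.59 ± 0.28 (edgeR adjusted p = 0.129) and was at 182.1 CPM in WT 4 against 84.9 to 93.6 in the other WT libraries. It gave -0.31 without WT 4 (edgeR adjusted p = 0.405) and -0.93, a call, without TAZG197V 3 (adjusted p = 0.00054). Esam and Egfl7 were close to 0 at -0.04 and 0.01, and the sign for Egfl7 turned in most other fits. Claudin 5 (Cldn5) was spread widely in both genotypes, from 14.6 to 38.4 CPM in WT and from 14.8 to 45.9 in TAZG197V. Its difference had opposite signs in the lanes, at 1.36 on lane 7 and -1.01 on lane 8 (log2).

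Neither protein of capillary endothelium was called. Gpihbp1, which carries lipoprotein lipase to the capillary surface, ranged from 51.6 to 71.0 CPM in WT and 58.7 to 76.2 in TAZG197V (log2 fold change 0.16 ± 0.12, edgeR adjusted p = 0.325). Plvap, a protein of fenestrae and endocardium, varied widely among the WT libraries, from 5.28 to 21.9 CPM, and gave -0.43 ± 0.41 (edgeR adjusted p = 0.433), or -0.11 without WT 4 (adjusted p = 0.844) and -0.74 without TAZG197V 3 (adjusted p = 0.137).

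Of the 6 transcription factors, Fli1 fell. This ETS factor of endothelial and blood cells was at 17.5, 18.3, 19.2 and 20.001 CPM in WT and at 13.3, 15.3, 17.0 and 13.4 in TAZG197V (log2 fold change -0.36 ± 0.09, edgeR adjusted p = 0.0164), a small shift without overlap. Erg, the related factor that keeps endothelial identity, gave -0.30 ± 0.11 (edgeR adjusted p = 0.0596) and was called in 6 of the 16 other fits, as without WT 4 (-0.40, adjusted p = 0.015). The flow-responsive factors Klf2 and Klf4 gave 0.28 ± 0.26 and 0.13 ± 0.15, and Sox17 and Sox18, factors of arterial and lymphatic specification, 0.07 ± 0.13 and 0.11 ± 0.19. None of these 4 passed the test in the reported fit. With single libraries left out, Klf2 ran from 0.054 without WT 3 to 0.47 without TAZG197V 4. It was called at 0.52 without both number 4 libraries (edgeR adjusted p = 0.0395). Klf4 was called higher without TAZG197V 3 (edgeR adjusted p = 0.0332). For Sox17, Sox18 and Klf4 the sign turned under at least 1 other fit.

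**Figure D3:**
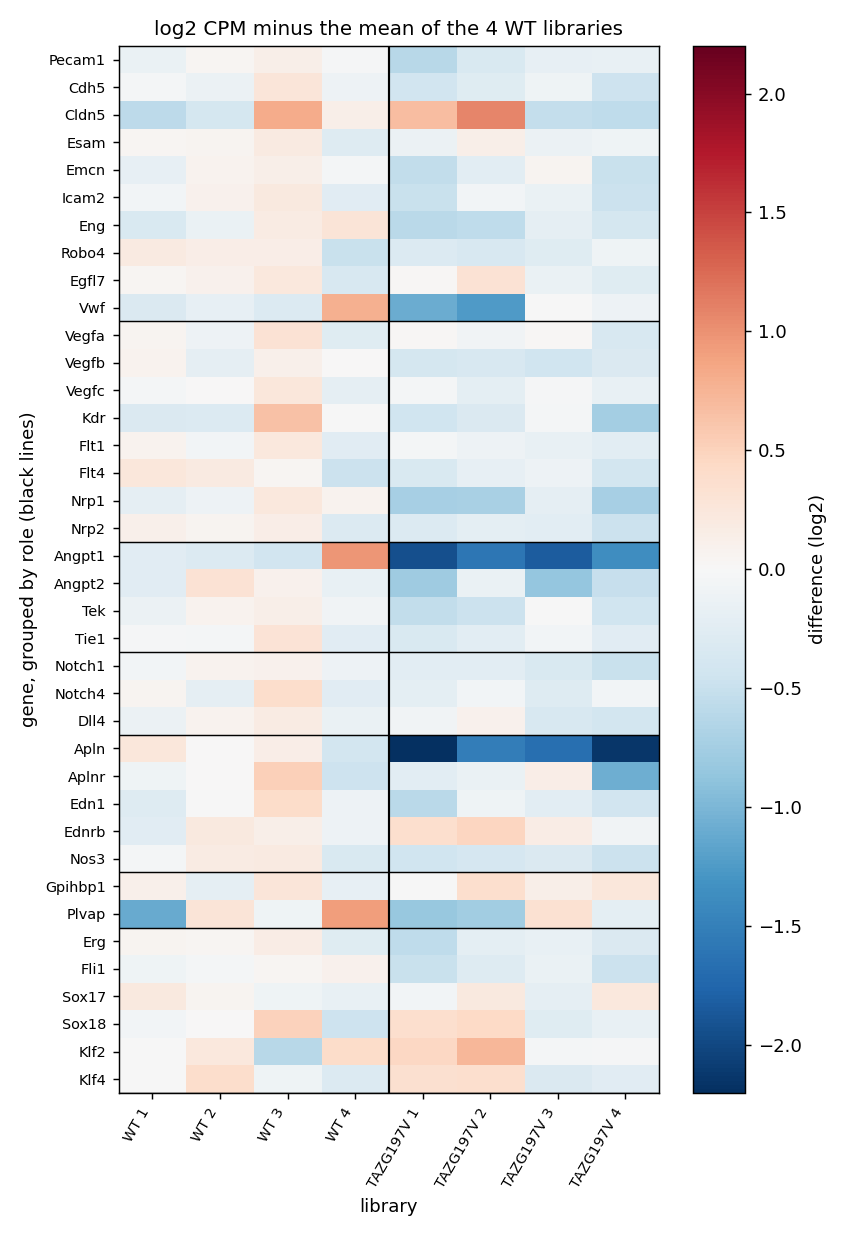
Log2 CPM of each of the 38 genes (rows, grouped by role) in each of the 8 libraries (columns), shown as the difference from the WT mean of that gene. Rows for Apln and Angpt1 are the deepest below 0 in the 4 TAZG197V columns, while Cldn5, Sox18, Klf2 and Klf4 differ between libraries within a genotype.

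The libraries also differed among themselves over the whole list. The median difference of the 38 genes from their WT mean, in log2 CPM, was -0.05, 0.03, 0.18 and -0.16 in WT libraries 1 to 4 and -0.34, -0.21, -0.16 and -0.37 in TAZG197V libraries 1 to 4. WT 4 and TAZG197V 3 thus lay side by side. Of the 4 WT libraries, WT 3 was the highest for 25 of the 38 genes and WT 4 the lowest for 20.

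Levels were compared between genes per exon length, as TPM, in which the counts divided by exon length are scaled to the same total in every library. TPM carries no TMM correction, so the 5.35% of counts in red cell genes in WT 4 lower the TPM of other genes there. This can widen the WT ranges and shift the WT means. Vegfa, for example, was at 160.4 TPM in WT and 161.0 in TAZG197V, but at 299.7 and 279.4 CPM. In WT hearts Vegfb led at 284.9 ± 15.0 TPM, followed by Vegfa at 160.4 ± 27.6, Cdh5 at 102.2 ± 12.8 and Eng at 97.3 ± 15.4 (SD, n = 4). The secreted ligands thus stood both at the top and at the bottom of the order, where Edn1 was at 4.97 TPM and Angpt2 was last at 3.24. Apln was at 13.2 TPM in WT and 3.67 in TAZG197V, and Angpt1 at 22.4 and 7.05. Of the 37 neighbouring pairs in the WT order, 33 had overlapping ranges. The other 4 were Vegfb above Vegfa, Vegfa above Cdh5, Eng above Pecam1 and Nrp2 above Notch1.

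The 38 genes were also set against 16 other genes expressed across the endothelium. Of these 16, 11 were called lower and 0 higher, with a median log2 fold change of -0.37. Examples were Bcl6b, an endothelial repressor, at -0.70, the surface protein Cd93 at -0.53 and Cyyr1 at -0.46, the last pair called in 10 of the 16 other fits. Their mean level in log2 CPM was 5.18 ± 0.18 over the WT libraries and 4.84 ± 0.11 over the TAZG197V libraries (SD), without overlap. Each member was therefore also expressed as its difference from this mean within each library.

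On that scale, 12 of the 38 genes were lower and 26 higher in TAZG197V than in WT, and the genotypes did not overlap in 6, against 40.5% of all genes. This count was 10 without WT 1 (43.5% of all genes) and 11 without TAZG197V 3 (45.4%). The mean of the 16 genes itself differed by -0.34, so that a gene without a difference of its own is higher on this scale, and 79.6% of all genes were higher. Apln and Angpt1 remained lower, by differences of -1.62 and -1.34 (log2). Of all genes 2.28% were lower without overlap. The other 4 members without overlap were higher relative to the 16 genes, where 38.2% of all genes were higher without overlap, so that this number is no result about the members. They were Ednrb at 0.57, Gpihbp1 at 0.52, Esam at 0.29 and Vegfc at 0.23. Ednrb ran from -0.81 to -0.47 in WT and from -0.24 to 0.09 in TAZG197V, and Gpihbp1 from 0.47 to 0.90 and from 1.07 to 1.44. Relative to the endothelial mean, Pecam1, Cdh5, Erg and Notch1 (0.02 to 0.03) and Fli1, Tek, Vegfb and Nos3 (-0.05 to -0.01) differed little between the genotypes. For Vegfa, Vegfb and Angpt1, made largely by cells other than endothelium, the ratio compares different cell types. For Nrp1 the difference was -0.25, with overlap.

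**Figure D4:**
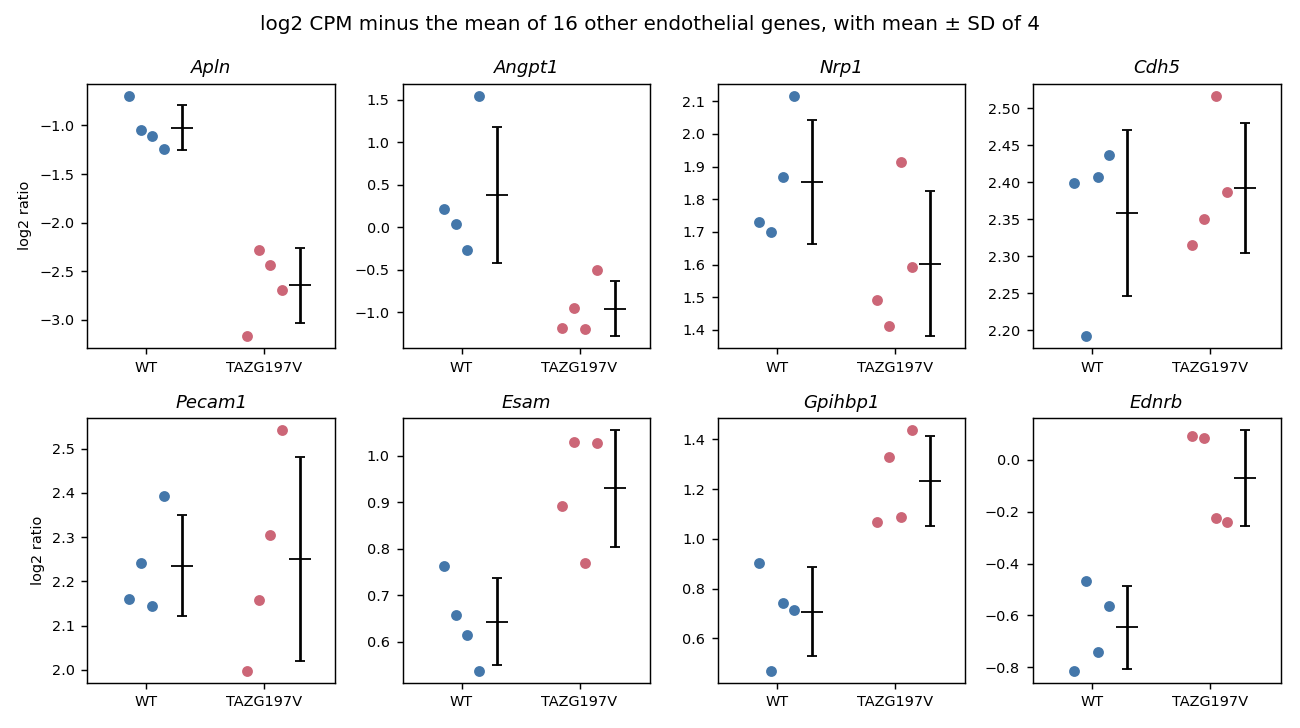
Level of 8 members relative to the mean of 16 other endothelial genes in the same library (difference in log2 CPM, y axis), for the 4 WT and 4 TAZG197V libraries, with bars for the mean and SD and a scale of its own for each panel. Apln and Angpt1 lie lower in TAZG197V, Ednrb, Gpihbp1 and Esam higher, and Cdh5 and Pecam1 near their WT level.

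Further lists of genes that act with the 38 gave, over all 11 lists, 43 genes called lower and 6 higher. Among VEGF partners and oxygen sensors 5 of 12 fell and 1 rose. Egln3 and Egln1, the oxygen-dependent hydroxylases that mark hypoxia-inducible factors for breakdown, gave -1.06 and -0.53, and Pgf, placental growth factor, gave -0.55. The 1 gene that rose was Hif1a (0.44), while its relative Epas1 fell by 0.53 on the log2 scale, from 355 ± 29.2 to 249 ± 7.89 CPM. Hif1a and Epas1 were named after their values were seen, and both were called in all 16 other fits, as was Egln1, against 14 for Egln3 and 11 for Pgf. Over these fits Egln3 ran from -1.30 to -0.62 and Pgf from -0.79 to -0.39.

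In the Notch pathway 4 of 13 other genes fell and 0 rose. These were Notch3, the receptor of smooth muscle and pericytes, at -0.67, Notch2 at -0.66, the ligand Jag2 at -0.50 and the ligand Dll1 at -0.45, the last named after its value was seen and called in 7 of the 16 other fits. Among 12 tested genes of vasoactive signalling 5 fell and 2 rose. Both that rose were receptors for vessel-narrowing peptides, Ednra for endothelin (1.23, with means of 39.7 ± 2.15 and 93.1 ± 7.38 CPM, edgeR adjusted p = 1.34e-05) and Agtr1a for angiotensin (0.75, adjusted p = 0.00124). Ece1, which makes endothelin from its precursor, gave -0.50. The endothelin A receptor of muscle cells thus rose while the members Edn1 and Ednrb were not called.

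Endothelial transcription factors outside the 38 gave 5 decreases of 10, with Ets1 at -0.56, Mef2c at -0.49 and Nfatc1 at -0.43. In capillary lipid transport 3 of 13 fell, Meox2 (-0.58) and Lpl (-0.53) among them, and Rgcc rose (0.63), although it was called in 4 of the 16 other fits. Of 8 arterial genes Mecom (-0.59) and Gja5 (-0.47) fell, and of 8 venous, endocardial and lymphatic genes Prox1 (-0.46) and Ephb4 (-0.21). Endothelial adhesion gave F11r higher (0.80) and Icam1 lower (-0.55) of 10. Sprouting and basement membrane genes gave 3 decreases of 9, Igfbp3 (-0.51), Mcam (-0.47) and Nid2 (-0.31). Of 7 inhibitors of vessel growth Thbs2 (-0.50) and Vash1 (-0.45) fell and Sema3c rose (0.53). Of these genes some were called in fewer of the 16 other fits, namely Nid2 in 8, Sema3c in 9, Prox1 in 10, Ephb4 in 12, Igfbp3 in 13, Ets1 and Gja5 in 14 and Vash1 in 15. The size moved most for Prox1 (-0.56 to -0.20), Sema3c (0.26 to 0.62) and Rgcc (0.38 to 0.81).

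**Figure D5:**
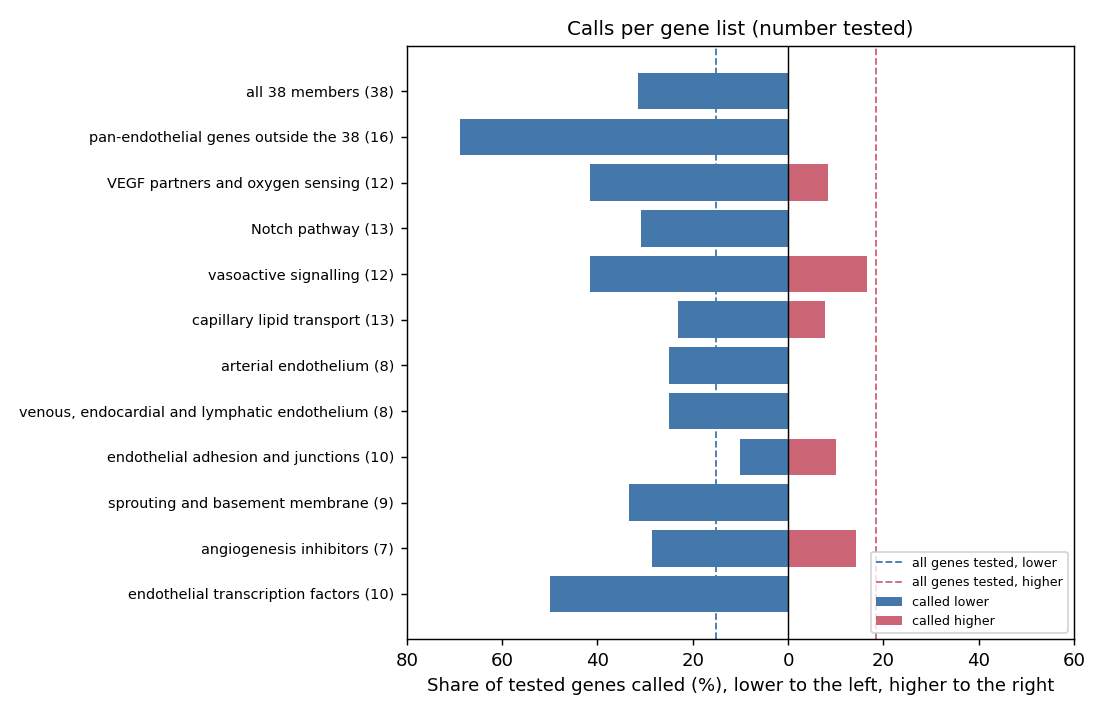
Share of tested genes (%) called lower (bars to the left) and higher (bars to the right) in TAZG197V hearts, for the 38 genes and each of the 11 accompanying lists, with the number tested in brackets and dashed lines at the share of all genes tested (15.1% lower, 18.5% higher). Every list but endothelial adhesion and junctions has its bar for lower calls beyond the dashed line, and no list has its bar for higher calls beyond it.

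Markers of other cell types moved in part with these genes. Of 6 cardiomyocyte markers 4 were called lower, and their summed level was 41560 to 46445 CPM in WT and 32322 to 37182 in TAZG197V, without overlap. Of 6 macrophage markers 0 were called in edgeR, with sums of 175.4 to 219.2 CPM in WT and 182.9 to 262.2 in TAZG197V. All 6 red cell genes were called lower, with sums of 346.2 to 55072 CPM in WT, the highest in WT 4, and 227.3 to 571.1 in TAZG197V. Without WT 4, 0 of these 6 were called in edgeR (log2 fold changes of -0.88 to -0.75, smallest adjusted p = 0.0684). Of 2 adipocyte markers tested both were called lower (0.58 to 43.1 CPM in sum in WT, 0.39 to 6.38 in TAZG197V), and of 4 brain markers tested 1 was lower and 1 higher (66.3 to 173.5 and 35.8 to 302.0 CPM). The summed level of the 16 endothelial genes was 731.8 to 967.1 CPM in WT and 622.2 to 727.3 in TAZG197V. The part of a changed cell composition in the results for the 38 genes was not tested.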

How the data were processed

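RNA was sequenced from heart pieces of 4 WT and 4 TAZG197V mice. The authors, per the labels and their methods, prepared libraries from 500 ng of RNA with a TruSeq kit, sequenced 50-base single reads, demultiplexed them with bcl2fastq 2.20.0, checked them with FastQC 0.11.9, aligned them to mm10 with STAR 2.7.3a, allowing 2 mismatches, and counted exonic reads per gene with featureCounts of Subread 2.0.0. The annotation release, strand setting and handling of reads with several alignments are not given in the sources used here, so overlapping genes are less certain. The deposited values are raw counts per Ensembl gene. The 92 ERCC rows summed to 0 and were left out.

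Symbols, positions and exon lengths came from GENCODE M21 on GRCm38 (55230 of 55471 gene IDs had a symbol). In R 4.3.3, filterByExpr kept 15084 genes, which were scaled by TMM and tested with the two-sided quasi-likelihood F-test of edgeR 4.0.16, with 2 surrogate variables from svaseq (sva 3.50.0, genotype protected, seed 1). Calls needed an adjusted p under 0.05, a log2 fold change above 0.20 or below -0.20 and a mean scaled count of at least 50. Log2 CPM used a prior count of 2. Standard errors are the size of the log2 fold change over the square root of F. Totals were 23055689 to 36301031 counts per library, and no pair of libraries within a genotype agreed within sampling noise (chi-square per gene of at least 10.2).

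The 38 members, the accompanying lists and the tests were chosen with earlier results of these data known. All 38 are named, with every library's value for called members without overlap and for those a result turns on. Outside the list, up to 3 called genes of the largest change per accompanying list are named. Genes named outside this rule are said to be so. In simulated counts for the comparison of genotypes without a library effect (14931 genes), 39 of 107 genes changed by 0.5 and 85 of 93 changed by 1.5 (log2) were called, with 3 unchanged genes. With a library effect (14914 genes) these were 34 of 95, 101 of 105 and 7. The simulated fits used 0 surrogate variables without the effect and 1 with it, against 2 in the reported fit. Far fewer genes were changed in them than were called in the data, so these shares need not hold there. The 16 other fits were DESeq2 1.42.0, 0 or 1 surrogate variable, lane or replicate number as a covariate, DESeq2 size factors, no count filter, both number 4 libraries left out, and each library left out in turn. A fold of 1.5 was a further setting, applied to the reported fit and not counted among the 16.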

Additional observations from a re-analysis of the deposited data

Results flagged for a closer look

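In each genotype, each gene was checked for a library far from the other 3 on the scale of log2(CPM + 0.1), as the gap to its nearest neighbour over the range of the genotype, against Dixon's critical value at the 95% level. Of 76 sets of 4 libraries 6 exceeded it, where chance alone gives 3.8. In WT 4, Angpt1 was high (gap of 0.873 of the range, at 93.3 CPM against 35.2 to 39.8), Vwf was high (0.872) and Robo4 was low (0.918, at 28.4 CPM against 44.3 to 46.1). In TAZG197V 3, Nrp1 (0.939, at 114.7 CPM against 78.7 to 80.5) and Tek (0.831, at 70.1 CPM against 48.4 to 51.5) were high. In TAZG197V 2, Esam was high (0.855, at 61.8 CPM against 51.8 to 53.1). WT 4 is also the library with 5.35% of its counts in red cell genes. What set these libraries apart for these genes was not tested.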

How the results depend on the processing

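Apln, Angpt1, Vegfb, Nrp1 and Notch1 were called in all 16 other fits, and the other 7 called genes lost the call in at least 1. Cdh5 lost it without WT 3, TAZG197V 2 or TAZG197V 4, without surrogate variables and with lane as covariate. Nrp2 lost it under the last pair of settings, Fli1 without TAZG197V 2, TAZG197V 4 or both number 4 libraries, and Nos3 without TAZG197V 2. Eng lost it without any 1 of WT 3, WT 4, TAZG197V 1, TAZG197V 2 and TAZG197V 4 and without both number 4 libraries. Kdr and Aplnr lost it without WT 2, WT 3, TAZG197V 1, TAZG197V 2 or TAZG197V 4, without both number 4 libraries, with 0 or 1 surrogate variable, with lane as covariate and without the filter, and Kdr also without WT 4 and with the replicate block. A fold of at least 1.5, which is not one of these 16 fits, left 1843 genes, 3 of the 38 members and 9 genes of the accompanying lists, against 5060, 12 and 49. Vegfb and Notch1 were not among these 3 members. With each library left out in turn, calls ran from 3675 to 4816 over all genes, from 7 to 17 for the members and from 37 to 55 for the accompanying lists, members without overlap from 6 to 13, and members without overlap relative to the 16 endothelial genes from 6 to 11. Leaving out both number 4 libraries gave 12 members without overlap, where 49.6% of all genes did not overlap, and 15 called, 14 lower and Klf2 higher, where 34.1% of all genes were called. Klf4 was called higher without TAZG197V 3. Of 38 members, 13 not called in the reported fit were called in at least 1 other. Calls were gained without WT 4 by Pecam1, Icam2, Robo4, Flt4, Tie1 and Erg, without TAZG197V 4 by Pecam1, Robo4, Flt4 and Erg, without TAZG197V 3 by Pecam1, Emcn, Vwf, Tek and Klf4, and without TAZG197V 2 by Angpt2. Without WT 3 the log2 fold changes of members not called also moved by over 1.5 times, to -0.020 for Vegfa and Vegfc, -0.063 for Flt1 and -0.11 for Dll4, and to 0.27 for Gpihbp1. In the other direction, Gpihbp1 gave 0.083 without TAZG197V 2. Ednrb gave 0.16 without WT 1. Signs turned for members near 0. With each library left out in turn, Cldn5 ran from -0.21 to 0.47, Esam from -0.14 to 0.038, Egfl7 from -0.10 to 0.076, Sox17 from -0.060 to 0.17, Sox18 from -0.02 to 0.29 and Klf4 from -0.03 to 0.28. Egfl7 gave -0.00515 with DESeq2, -0.018 without surrogate variables, -0.00514 with 1, -0.029 with lane, -0.019 with the replicate block, -0.00581 with DESeq2 size factors, -0.026 without the filter and -0.040 without both number 4 libraries. Sox17 gave -0.021 without the filter and -0.068 without both number 4 libraries. The cause was not tested.

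Replicate number as a block gave 16 called members, 11 of them shared with the 12, where 28.3% of all genes were called. The members gained were Pecam1, Emcn, Icam2, Angpt2 and Tek, all lower, and Kdr was lost. The deviations of libraries with the same number correlated at 0.0436 to 0.416, those with different numbers at -0.464 to 0.317, so that the numbers were not taken to pair the mice. Counts limit the rarest members, such as Angpt2 with 80 counts in 1 library, more than the abundant ones.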

Other observations

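For a few of the genes the difference between the genotypes was not alike in the lanes. Cldn5, the tight junction protein, was at 14.6 and 16.6 CPM in the WT libraries and at 35.0 and 45.9 in the TAZG197V libraries of lane 7, and at 38.4 and 23.9 against 15.1 and 14.8 on lane 8. Sox18, a factor that acts on the Cldn5 gene, was at 27.5 and 28.9 against 36.8 and 38.8 CPM on lane 7 and at 40.5 and 20.7 against 23.8 and 25.4 on lane 8, where the ranges overlapped. Klf2 was at 29.7 and 34.9 CPM in WT and 40.9 and 49.8 in TAZG197V on lane 7, and at 19.5 and 39.3 against 28.8 and 29.2 on lane 8. With 2 libraries per genotype and lane, no test of this difference between lanes was made.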
